A study of Mus musculus with 16 samples.

Results

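The mitochondrial solute carriers of the Slc25 family were followed in white fat. The members are the genes whose symbol is Slc25a followed by a number and that reached at least 1 FPKM (fragments per kilobase of transcript, scaled to mapped fragments) in at least 2 of the 16 libraries. All 40 symbols of that form in the deposited table met the threshold, of 14023 genes in the table, and 13669 genes met the same threshold. Other symbols of the family are not analysed here, and Ucp1, Ucp2, Ucp3, Mtch1 and Mtch2, which belong to the wider carrier family under other names, are counted separately.

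Slc25 proteins sit in the inner mitochondrial membrane, with a few in peroxisomes or the outer membrane, and most exchange a metabolite on one side for another on the other side. In fat they carry ADP and ATP, phosphate, citrate for fatty acid synthesis, acylcarnitines for fatty acid oxidation, amino acids and cofactors. PPARg is the nuclear receptor that drives fat cell differentiation, and rosiglitazone is its agonist; the K107R mutation replaces a PPARg lysine that can carry a SUMO group with arginine.

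RNA was sequenced from epididymal (eWAT) and inguinal (iWAT) white fat of mice homozygous for PPARg K107R or wild type (WT). All mice ate chow for 10 weeks followed by 19 weeks on a high-fat diet (60% of calories). For 1 week they were gavaged with rosiglitazone at 10 mg/kg in 1% methylcellulose, or with methylcellulose alone (vehicle). The groups, each of 2 libraries with replicate numbers 1 and 2, were K107R rosiglitazone, K107R vehicle, WT rosiglitazone and WT vehicle, in eWAT and again in iWAT. The genotype label names no promoter or Cre, and the labels do not say whether the libraries of a group are from separate mice or whether both depots came from the same mice. The p-values therefore speak of differences among libraries, whose spread could be technical.

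Depth is unknown, because FPKM values carry no counts; they summed to 411746 to 596519 per library. The 7 fat cell markers (among them Adipoq and Plin1) were present in every group, with sums of 4848 to 13457 FPKM. Epididymis epithelium markers summed to 3372 to 3572 FPKM in the eWAT K107R vehicle libraries and to at most 5.74 FPKM in every other library, and 5 epithelial keratin and adhesion markers to 73.1 to 90.6 FPKM there against at most 10.1 FPKM elsewhere. The eWAT K107R vehicle libraries therefore stand apart. In eWAT, the K107R response, the vehicle genotype comparison, the average over genotypes and the difference in response all use them. Every depot comparison uses them too. Values without them are given only where stated. The number 2 libraries had a median FPKM over all genes of 5.36 to 8.83, and the number 1 libraries of 8.95 to 9.61.

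The family spanned a wide range of levels, as the plot of members in order of mean FPKM shows. Slc25a5 and Slc25a4, which exchange ADP for ATP (adenine nucleotide translocases 2 and 1), averaged 344 and 284 FPKM over the 16 libraries, and Slc25a1, the citrate carrier, averaged 228 FPKM. Slc25a47 and Slc25a53 were lowest, at 1.13 and 0.618 FPKM. Slc25a53 lay just inside the threshold, with 3 libraries at 1 FPKM or more (highest 1.73 FPKM), and no symbol of the family's form lay just outside it. The members together summed to 1266 to 2443 FPKM per library.

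**Figure D1:**
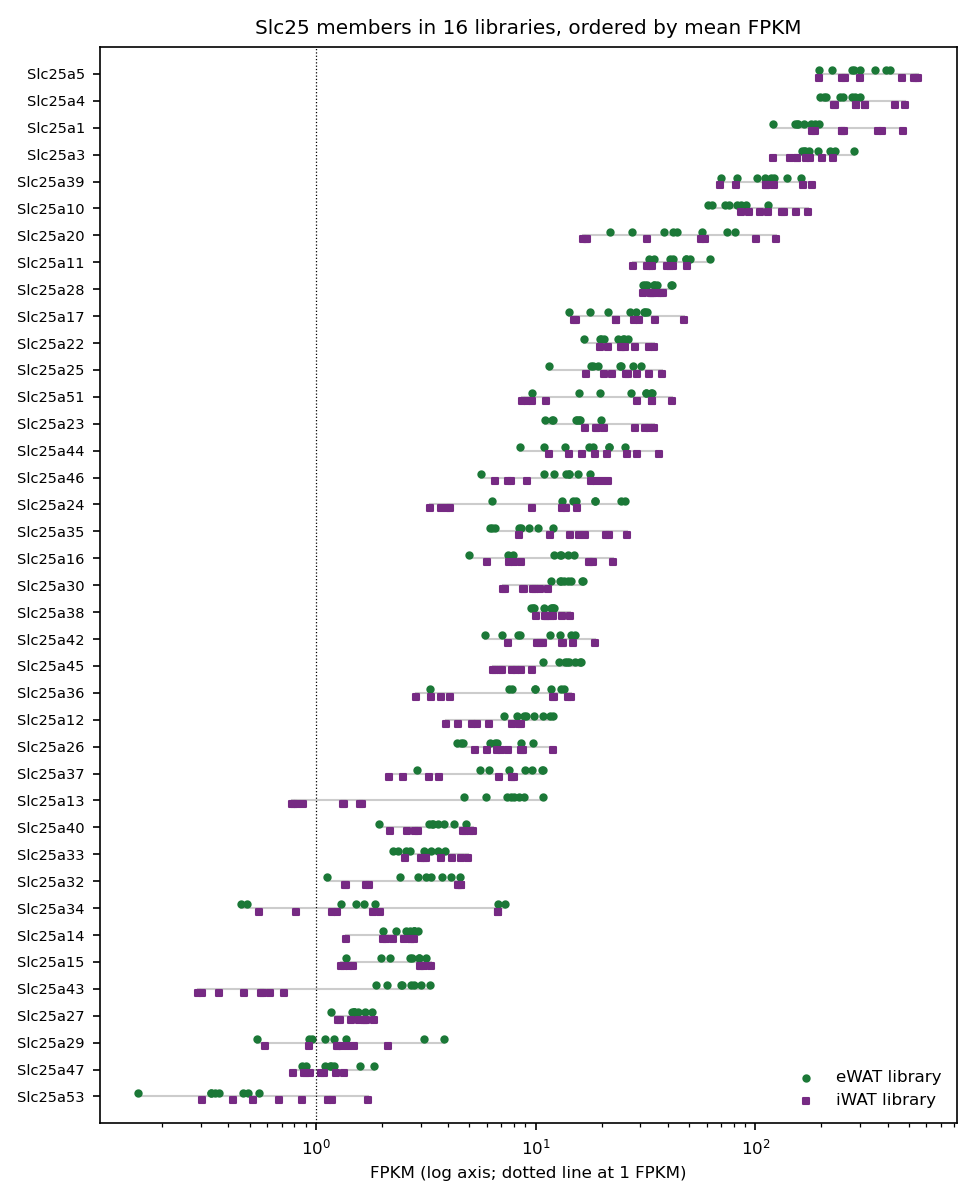
FPKM (log axis) of 39 of the 40 members in each of the 16 libraries, members ordered by mean. Circles are eWAT libraries and squares iWAT libraries, and the dotted line marks 1 FPKM; Slc25a5 averaged 344 FPKM and Slc25a53 0.618 FPKM.

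Over the family total, rosiglitazone groups were higher than vehicle groups. The totals averaged 1872 ± 155 FPKM in K107R rosiglitazone eWAT and 1429 ± 223 FPKM in K107R vehicle eWAT, and 1597 ± 61.7 FPKM in WT rosiglitazone eWAT and 1349 ± 117 FPKM in WT vehicle eWAT (mean ± SD, n = 2 each). In iWAT they averaged 2235 ± 294 FPKM in K107R rosiglitazone and 1456 ± 220 FPKM in K107R vehicle, and 2301 ± 163 FPKM in WT rosiglitazone and 1533 ± 173 FPKM in WT vehicle. No test was made on the totals, which the most abundant members dominate.

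Slc25a34, a carrier whose substrate is not settled, passed the test in 7 of the 8 treatment and genotype comparisons, higher each time. In eWAT the libraries with numbers 1 and 2 had 6.75 and 7.26 FPKM in K107R rosiglitazone and 1.85 and 1.65 FPKM in K107R vehicle. They had 1.30 and 1.52 FPKM in WT rosiglitazone and 0.486 and 0.457 FPKM in WT vehicle. Both K107R rosiglitazone libraries were highest, both WT vehicle libraries were lowest, and no 2 of these groups overlapped. In iWAT, Slc25a34 had 6.75 and 6.74 FPKM in K107R rosiglitazone, 1.18 and 1.25 FPKM in K107R vehicle, 1.97 and 1.83 FPKM in WT rosiglitazone and 0.817 and 0.553 FPKM in WT vehicle. The order differed from eWAT in that WT rosiglitazone lay above K107R vehicle, and again no groups overlapped. The gene lies on chromosome 4 from 141618824 to 141623821 on the minus strand (GRCm38), overlaps no other annotated gene, and has a paralogue, Slc25a35.

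For every 16-library test below, limma on log2(FPKM + 1) gave each gene a change and Benjamini-Hochberg adjusted p over 13669 genes; the pseudocount of 1 makes the changes of low genes smaller. With rosiglitazone, Slc25a34 rose in K107R eWAT by log2 1.54 ± 0.12 (SE, adjusted p = 1.1e-05; ratio of mean FPKM 3.99) and in K107R iWAT by 1.81 ± 0.12 (adjusted p = 3e-05; ratio 5.55). In WT eWAT it rose by 0.71 ± 0.12 (adjusted p = 0.0441; ratio 2.99) and in WT iWAT by 0.79 ± 0.12 (adjusted p = 0.0101; ratio 2.77). Both WT calls were lost when libraries were rescaled by their median ratio (adjusted p = 0.329 in eWAT and 0.0958 in iWAT) or the depot was fitted alone (0.176 and 0.266). The eWAT call was also lost when any 1 of its 4 libraries was left out (adjusted p = 0.273 to 0.389), and the iWAT call when either rosiglitazone library or the number 2 vehicle library was left out (0.0797 to 0.112).

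Slc25a34 was higher in K107R than in WT without overlap in all 4 comparisons, and 3 of them passed the test. It rose in eWAT with rosiglitazone by log2 1.73 ± 0.12 (adjusted p = 9.5e-05; ratio 4.96), in eWAT with vehicle by 0.90 ± 0.12 (adjusted p = 0.000979; ratio 3.72) and in iWAT with rosiglitazone by 1.42 ± 0.12 (adjusted p = 6.9e-05; ratio 3.55). In iWAT with vehicle the change was 0.40 (adjusted p = 0.38; ratio 1.78), which did not pass. The genotype comparisons share libraries with the rosiglitazone comparisons, so they are not separate evidence. The eWAT vehicle comparison and the K107R eWAT response use the libraries with epididymis transcripts, whose part was not tested. The eWAT rosiglitazone comparison does not use them.

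The response to rosiglitazone was larger in K107R than in WT by log2 0.83 ± 0.17 in eWAT (adjusted p = 0.0257) and by 1.02 ± 0.17 in iWAT (adjusted p = 0.0197), and Slc25a34 was the 1 member called in either test (2.53% and 0.966% of all genes were called). Both calls depended on the scale. With a pseudocount of 0.1 FPKM the differences were 0.54 (adjusted p = 0.99) in eWAT and 1.01 (adjusted p = 0.26) in iWAT, and neither passed after rescaling or within the depot alone. The eWAT call was also lost without any 1 of its libraries (adjusted p = 0.0641 to 0.154) but the number 1 K107R vehicle library. The eWAT difference uses both K107R vehicle libraries with epididymis transcripts and has no value without them; the iWAT difference does not use them. The iWAT call was lost without any 1 of its libraries (0.0725 to 0.0925) but the number 2 vehicle libraries of K107R and WT. With the replicate block the eWAT test called 2 members (4.2% of genes), adding Slc25a29 as lower.

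**Figure D2:**
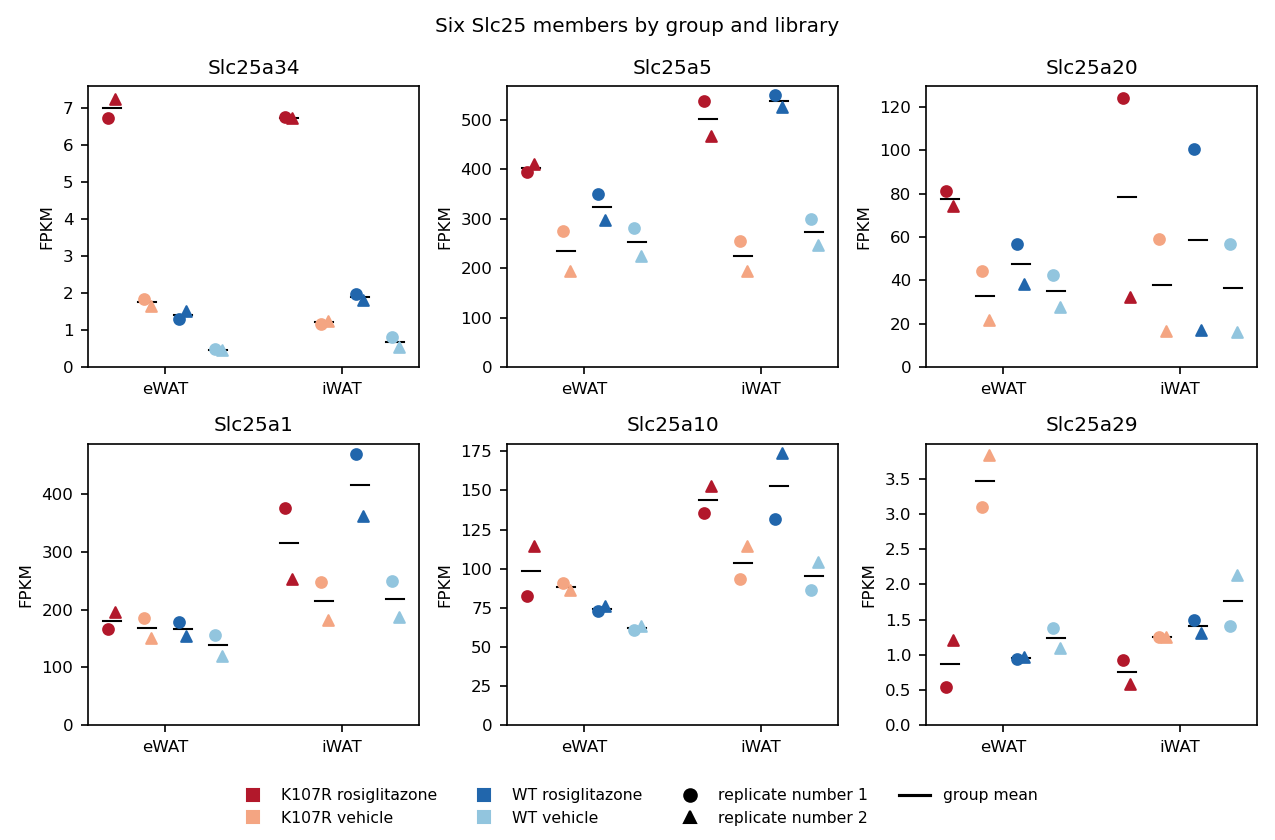
FPKM of 6 members in each library by depot and group, K107R rosiglitazone leftmost and WT vehicle rightmost in each depot; symbols mark replicate numbers and bars group means (n = 2). Slc25a34 reached 6.74 to 7.26 FPKM in K107R rosiglitazone of both depots, and Slc25a29 3.09 and 3.83 FPKM in K107R vehicle eWAT.

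Other values moved beside Slc25a34, and their part in its change was not tested. The 6 brown and beige fat markers in the table summed to 177 to 189 FPKM in K107R rosiglitazone, 52.7 to 57.4 in K107R vehicle, 62.9 to 65.7 in WT rosiglitazone and 44.1 to 47.8 in WT vehicle in eWAT. In iWAT, these markers were at 234 to 237 FPKM in K107R rosiglitazone, 115 to 125 in K107R vehicle, 285 to 343 in WT rosiglitazone and 160 to 165 in WT vehicle. Their order followed that of Slc25a34 in eWAT at the top and bottom groups, whereas in iWAT their sum, to which Cox8b gave the most in every library, was highest in WT rosiglitazone and Slc25a34 in K107R rosiglitazone. Elovl3, a fatty acid elongase of the same list, had the order of Slc25a34 in iWAT. It was at 65.3 and 42.8 FPKM in K107R rosiglitazone and 3.55 and 2.44 FPKM in K107R vehicle. In WT it was at 11.2 and 8.74 FPKM with rosiglitazone and 1.74 and 1.04 FPKM with vehicle. Elovl3 was singled out after its values were seen, and the other markers of the list did not share its order. Ucp1 had 12.4 and 7.25 FPKM in K107R rosiglitazone iWAT against 29.4 and 16.3 FPKM in WT rosiglitazone. Cox7a1 had 33.9 and 43.3 FPKM against 52.0 and 63.7 FPKM, and Cox8b was also lower in K107R. Cidea and Ppargc1a overlapped between these groups. T and B cell markers in iWAT were lowest in K107R rosiglitazone, at 15.4 to 27.0 FPKM, against 126 to 202 FPKM in WT rosiglitazone. The 8 skeletal muscle markers summed to 109 to 115 FPKM in K107R vehicle iWAT and to at most 39.7 FPKM in every other library. In bulk tissue, fewer cells of a type and less RNA per cell cannot be told apart.

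The balance of Slc25a34 with its paralogue Slc25a35, a set chosen after its values were seen, shifted with it. Slc25a34 made 43.9 to 54.0% of their summed FPKM in K107R rosiglitazone eWAT against 4.51 to 5.16% in WT vehicle eWAT. In iWAT the shares were 28.6 to 44.6% in K107R rosiglitazone and 3.04 to 3.70% in WT vehicle. Slc25a35 itself was called in no comparison of treatment or genotype.

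To show the start site region of the member called most often, and of the carnitine carrier, whose promoter held 1 of the 3 closest matches among members, the 300 bases around each start (250 before and 50 after) are given 5′ to 3′ from the RefSeq promoter table (GRCm38.p6); Slc25a34 is at chr4:141623785-141624084, minus strand, and Slc25a20 at chr9:108661886-108662185, plus strand. Capitals mark a window with the fewest mismatches to AGGTCA, any 1 base, then AGGTCA again, searched on both strands. That motif is the direct repeat that PPARg binds with its partner RXR. Where windows tied, the first found is marked.
Slc25a34: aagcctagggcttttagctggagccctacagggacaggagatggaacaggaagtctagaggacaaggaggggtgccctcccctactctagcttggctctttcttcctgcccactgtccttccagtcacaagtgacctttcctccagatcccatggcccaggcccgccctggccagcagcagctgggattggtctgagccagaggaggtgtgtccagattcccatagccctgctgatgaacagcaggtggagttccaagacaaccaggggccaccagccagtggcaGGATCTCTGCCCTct
Slc25a20: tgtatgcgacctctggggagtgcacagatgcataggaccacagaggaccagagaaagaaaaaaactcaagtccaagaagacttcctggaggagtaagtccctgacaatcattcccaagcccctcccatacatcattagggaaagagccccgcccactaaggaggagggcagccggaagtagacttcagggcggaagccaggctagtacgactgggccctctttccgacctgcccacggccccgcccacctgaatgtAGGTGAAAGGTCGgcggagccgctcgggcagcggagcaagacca
The Slc25a34 window matched on the minus strand of the printed run with 3 mismatches, and the Slc25a20 window on the plus strand with 2. In Slc25a34 the unmarked stretch tcacaagtgacct also had 3 mismatches on the minus strand, and it holds AGGTCA without a mismatch. The table holds 40 promoters of 31 members, since some have more than 1 start. At most 3 mismatches were found in 24.6% of 32851 promoters and in 15 of the 40 member promoters. At most 2 were found in 3.86% of promoters and in 3 of the 40, those of Slc25a20, Slc25a45 and Slc25a47. The single repeat unit AGGTCA without a mismatch, which is part of the longer motif, was in 16.3% of promoters and in 4 of the 40, that of Slc25a34 among them. Both promoters and the motif were chosen after values were seen, and a match describes letters, not binding.

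Across the family, few other carriers passed the test with rosiglitazone. In WT eWAT 1 of 40 members was called (Slc25a34), where 0.446% of all genes were. In K107R eWAT 2 were called, Slc25a34 up and Slc25a29 down (4.89% of genes). In WT iWAT and in K107R iWAT 2 members each rose, Slc25a34 and Slc25a5 (1.68% and 4.21% of genes). The median change of the members was log2 0.13 in WT eWAT, 0.34 in K107R eWAT, 0.13 in WT iWAT and 0.17 in K107R iWAT, beside 0.03, 0.17, 0.03 and 0.03 over all genes. Rescaling took the all-gene median in K107R eWAT to -0.00 and that of the members to 0.15. With the replicate number as a block, 7 members were called in K107R eWAT (10.9% of genes), 7 in WT iWAT (6.98%) and 7 in K107R iWAT (12.4%), and all but Slc25a29 were higher. All K107R eWAT values here use the K107R vehicle libraries with epididymis transcripts.

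Slc25a5 was at 394 and 410 FPKM in K107R rosiglitazone eWAT against 275 and 195 FPKM in K107R vehicle, and at 351 and 298 FPKM in WT rosiglitazone eWAT against 281 and 224 FPKM in WT vehicle. In iWAT it was at 536 and 466 FPKM in K107R rosiglitazone against 255 and 194 FPKM in K107R vehicle, and at 550 and 525 FPKM in WT rosiglitazone against 299 and 248 FPKM in WT vehicle. Rosiglitazone libraries were higher than vehicle libraries of the same depot and genotype with no overlap. The rise passed in iWAT, by log2 1.17 ± 0.21 in K107R (adjusted p = 0.0104; ratio 2.23) and 0.98 ± 0.21 in WT (adjusted p = 0.0489; ratio 1.96). The WT call was lost with a pseudocount of 0.1 (adjusted p = 0.0547), in iWAT fitted alone (0.3) and without any 1 of its 4 libraries (0.139 to 0.343); the K107R call was lost in iWAT alone (0.098) and without the number 2 vehicle or number 1 rosiglitazone library (0.085 and 0.0913). In eWAT the changes were 0.79 in K107R (adjusted p = 0.0631; called with the block, 0.00235) and 0.36 in WT, which did not pass. Slc25a5 has 1 pseudogene named after it in the annotation and could share reads with it.

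Averaged over both genotypes, 4 members rose with rosiglitazone in iWAT (5.36% of all genes were called) and none fell: Slc25a34, Slc25a5, Slc25a1 and Slc25a10. With the replicate block, 12 members rose there (16.2% of genes), adding Slc25a4, Slc25a11, Slc25a17, Slc25a22, Slc25a25, Slc25a26, Slc25a39 and Slc25a44. Slc25a1, the citrate carrier, had 376 and 254 FPKM in K107R rosiglitazone iWAT against 248 and 182 FPKM in K107R vehicle, and 470 and 363 FPKM in WT rosiglitazone iWAT against 249 and 187 FPKM in WT vehicle. All 4 rosiglitazone libraries lay above all 4 vehicle libraries, although the number 2 K107R rosiglitazone library did so narrowly. The average change was log2 0.74 ± 0.18 (adjusted p = 0.0463), and it was lost within iWAT alone (0.253). It was also lost without 6 of the 8 iWAT libraries in turn (adjusted p = 0.0618 to 0.163); the exceptions were the number 1 K107R vehicle and number 2 K107R rosiglitazone libraries.

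Slc25a10, which exchanges dicarboxylates such as malate and succinate for phosphate, had 135 and 153 FPKM in K107R rosiglitazone iWAT against 93.2 and 114 FPKM in K107R vehicle, and 132 and 174 FPKM in WT rosiglitazone iWAT against 86.3 and 105 FPKM in WT vehicle. The rosiglitazone libraries were again the 4 highest. The average change was log2 0.57 ± 0.14 (adjusted p = 0.0399), lost on rescaling (0.473) and within iWAT alone (0.203). It was lost without 6 of the 8 iWAT libraries in turn (adjusted p = 0.0618 to 0.154), the exceptions being the number 2 K107R vehicle and number 1 WT rosiglitazone libraries.

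In eWAT the average over genotypes called 2 members, Slc25a34 up by log2 1.13 while Slc25a29 fell by 0.73 (5.18% of genes). The replicate block called 8 (11.7% of genes), with Slc25a5, Slc25a25, Slc25a26, Slc25a39, Slc25a42 and Slc25a44 added, all higher. Without the eWAT K107R vehicle libraries, which leaves WT alone, 0 members were called by limma (0.337% of genes): Slc25a34 had log2 0.71 (adjusted p = 0.0511) and Slc25a29 -0.20 (adjusted p = 1). The difference between eWAT and iWAT in the rosiglitazone response called 0 members (2.21% of genes), with 2 at an unadjusted p under 0.05. The smallest p belonged to Slc25a5 (log2 -0.49, adjusted p = 0.71) and Slc25a29 (log2 -0.46, adjusted p = 0.73).

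Slc25a20, which brings acylcarnitines into mitochondria for oxidation, had 81.0 and 74.3 FPKM in K107R rosiglitazone eWAT against 44.2 and 21.8 FPKM in K107R vehicle, and 57.0 and 38.3 FPKM in WT rosiglitazone eWAT against 42.3 and 27.6 FPKM in WT vehicle. In iWAT it had 124 and 32.3 FPKM in K107R rosiglitazone against 59.1 and 16.9 FPKM in K107R vehicle, and 100 and 17.1 FPKM in WT rosiglitazone against 56.5 and 16.4 FPKM in WT vehicle. In iWAT every number 1 library was far above its number 2 partner, so the groups overlapped. No rosiglitazone comparison passed (log2 0.44 to 1.29, SE 0.95).

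Slc25a20 was nevertheless higher with rosiglitazone in all 8 same-numbered pairs of libraries, by a ratio of 1.04 to 3.40 on deposited values. The highest ratio was that of the number 2 pair in K107R eWAT. Both K107R eWAT pairs use the vehicle libraries with epididymis transcripts, and the labels do not say that same-numbered libraries belong together. Of the 40 members, 12 were higher in all 8 pairs (12.7% of all genes were), and 0 were lower in all 8 (4.03% of genes). The 12 were Slc25a4, Slc25a5, Slc25a17, Slc25a20, Slc25a22, Slc25a25, Slc25a26, Slc25a30, Slc25a34, Slc25a39, Slc25a42 and Slc25a44. This count was chosen after values were seen, and no test was made on it. Besides the nucleotide exchangers and the carnitine carrier, they include Slc25a39, which brings glutathione into mitochondria, Slc25a26, the S-adenosylmethionine carrier, Slc25a22, a glutamate carrier, and Slc25a44, a carrier of branched-chain amino acids.

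Slc25a39 was at 162 and 140 FPKM in K107R rosiglitazone eWAT against 118 and 70.0 FPKM in K107R vehicle, and at 122 and 102 FPKM in WT rosiglitazone eWAT against 111 and 82.3 FPKM in WT vehicle. In iWAT it was at 182 and 122 FPKM in K107R rosiglitazone against 112 and 81.5 FPKM in K107R vehicle, and at 164 and 112 FPKM in WT rosiglitazone against 113 and 69.3 FPKM in WT vehicle. The WT groups overlapped in both depots, and the K107R groups in neither. Its changes passed with the block in K107R eWAT (log2 0.72, adjusted p = 0.00646), K107R iWAT (0.63, 0.0129) and WT iWAT (0.61, 0.0247), and in none of these without it (0.531 to 0.826). On rescaled values without the block, K107R iWAT passed (adjusted p = 0.0487), while K107R eWAT (0.114) and WT iWAT (0.0914) did not.

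**Figure D3:**
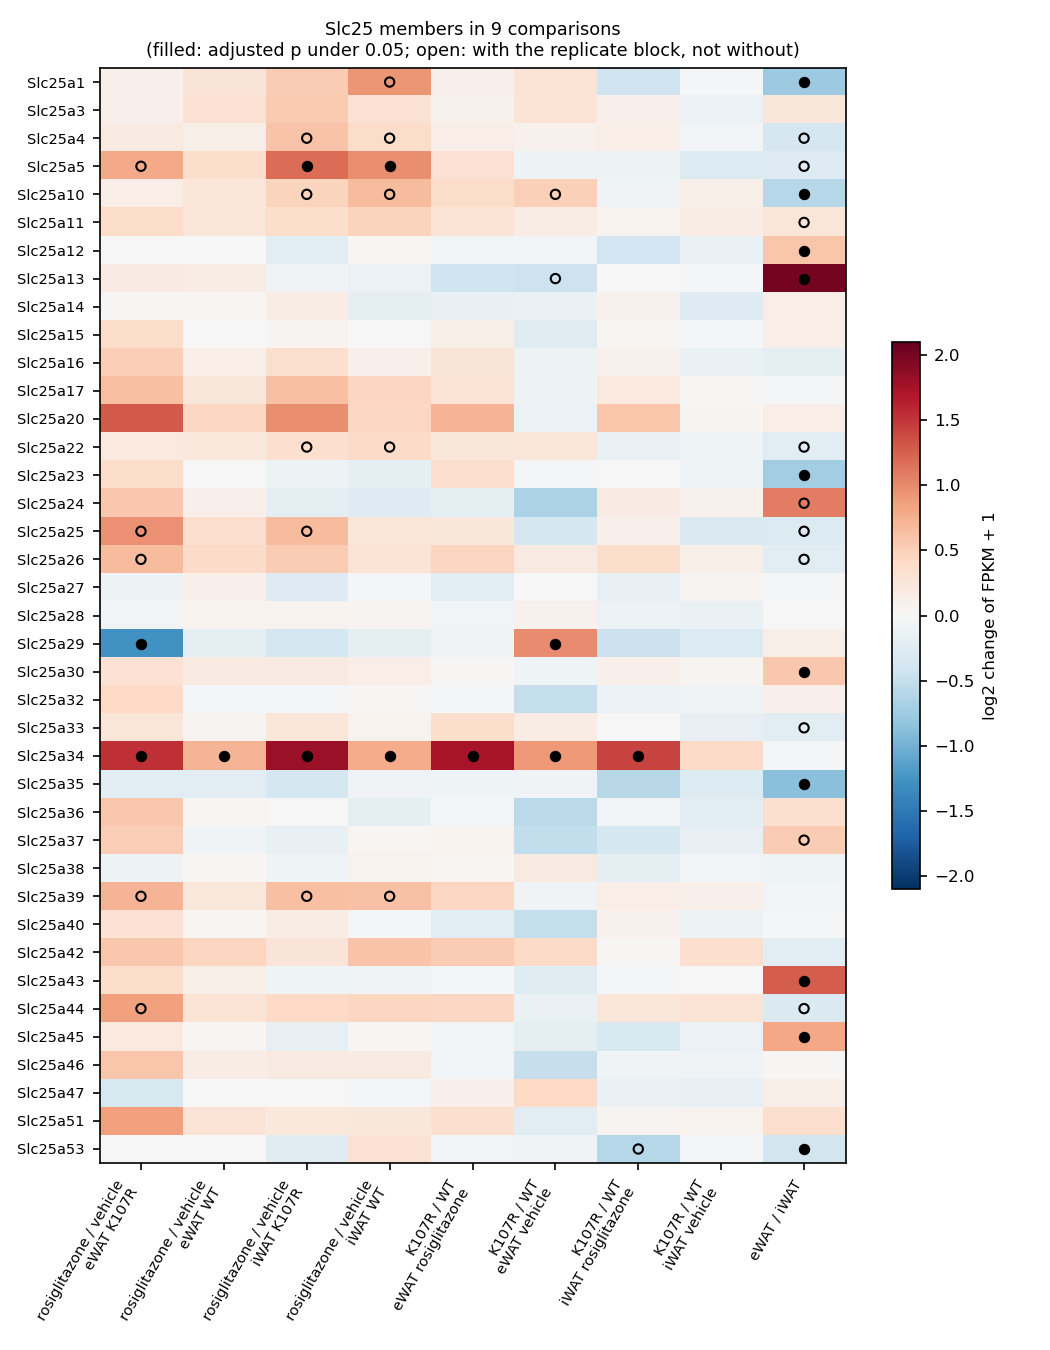
Log2 change on the log2(FPKM + 1) scale of 39 of the 40 members (rows) in 4 rosiglitazone over vehicle, 4 K107R over WT and the eWAT over iWAT comparison (columns). Filled points mark adjusted p under 0.05 and open points those that pass with the replicate block but not without it, both on deposited values; Slc25a34 is marked in 7 of the 8 treatment and genotype columns.

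For genotype, K107R over WT called few members. In eWAT with vehicle, Slc25a34 and Slc25a29 were higher (3.35% of genes were called), and with the block Slc25a10 was also higher and Slc25a13 lower (8.3%). In eWAT with rosiglitazone Slc25a34 was the 1 member called (0.907%). In iWAT with rosiglitazone it was again the 1 called (4.13%). With the block 3 members were called there (9.36%), Slc25a53, at most 1.73 FPKM in any library, among those that fell (log2 -0.61). Of the libraries compared, only the number 1 WT library reached 1 FPKM of Slc25a53. The number 2 WT library had 0.868 FPKM and the K107R libraries 0.684 and 0.305 FPKM, so the Slc25a53 call is given no weight. In iWAT with vehicle 0 members were called by limma (0.578% of genes), with 1 at an unadjusted p under 0.05 and 0 with the block; the smallest p belonged to Slc25a34, given above. The median change of the members was -0.07 in eWAT with vehicle, 0.09 in eWAT with rosiglitazone, -0.07 in iWAT with vehicle and 0.00 in iWAT with rosiglitazone. Over all genes the medians were -0.13, 0.01, -0.06 and -0.01. Rescaling turned the sign in eWAT with vehicle, to 0.08 over the members and 0.01 over all genes.

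Slc25a29, which carries basic amino acids, had 3.09 and 3.83 FPKM in K107R vehicle eWAT, and 0.539 to 2.13 FPKM in the other 14 libraries. Its level was 0.539 and 1.21 FPKM in K107R rosiglitazone eWAT, 0.934 and 0.965 FPKM in WT rosiglitazone eWAT and 1.37 and 1.10 FPKM in WT vehicle eWAT. It rose in K107R vehicle against WT vehicle by log2 0.99 ± 0.19 (adjusted p = 0.016) and fell with rosiglitazone in K107R eWAT by 1.27 ± 0.19 (adjusted p = 0.00238). The genotype call was lost with a pseudocount of 0.1 (adjusted p = 0.0642), on rescaling (0.0556), in eWAT alone (0.0646), and without either WT vehicle library or the number 2 K107R vehicle library (0.0677 to 0.161). Both calls rest on the K107R vehicle libraries that hold epididymis and epithelial transcripts, and the part of those transcripts was not tested. Slc25a47 was also highest there, at 1.85 and 1.58 FPKM, against 0.784 to 1.34 FPKM in the other libraries. Its gene starts at 108836046 on chromosome 12 (GRCm38), on the plus strand. The gene of Slc25a29 starts at 108835883 on the minus strand, so they run away from each other.

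Between the depots, with 8 libraries each, more members passed than between treatments or genotypes, and so did more of all genes. The count of members is near the share over all genes. Of 40 members, 5 were higher and 6 lower in eWAT than in iWAT (19.9% of all genes were higher and 12.5% lower; 32.4% in all). With rescaling, 6 were higher and 13 lower (39.7% of genes), and with the replicate block 8 and 13 (55.8% of genes). The median was log2 -0.02 over the members and 0.10 over all genes; rescaling took these to -0.12 and -0.01. The depot changes given below are on deposited values, and the median over all genes was not subtracted from them. Slc25a43 and Slc25a53 are 2 of the 11 called without rescaling or block, but each reached 1 FPKM in libraries of 1 depot alone, so the threshold chose them by that depot and their depot tests support nothing. Every eWAT library lay above every iWAT library in 4 members (8.24% of genes), Slc25a13, Slc25a30, Slc25a43 and Slc25a45.

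Slc25a13, known as citrin, and Slc25a12, known as aralar, export aspartate for glutamate in the malate-aspartate shuttle. Slc25a13 ranged from 4.73 to 10.8 FPKM in the 8 eWAT libraries (median 7.88) and from 0.781 to 1.62 FPKM in the 8 iWAT libraries (median 1.10). The gap was log2 2.01 ± 0.14 (adjusted p = 1.8e-06), and the ratio of group means ranged from 5.04 to 9.05 over the 4 genotype and treatment pairs. Slc25a12 differed less, with 7.21 to 12.02 FPKM in eWAT (median 9.42) and 3.91 to 8.62 FPKM in iWAT (median 5.78). Its gap was 0.59 ± 0.18 (adjusted p = 0.0279). Without the eWAT K107R vehicle libraries it did not pass (0.0554), nor without any 1 of 9 libraries (0.0519 to 0.0709): both K107R rosiglitazone eWAT libraries, the number 1 library of each other eWAT group and the number 2 library of each iWAT group. Slc25a13 made 38.0 to 50.5% of their summed FPKM in eWAT libraries and 12.6 to 17.9% in iWAT libraries, and these ranges did not overlap.

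Slc25a43, on the X chromosome a short way from Slc25a5, had 1.88 to 3.31 FPKM in eWAT (median 2.59) and 0.291 to 0.715 FPKM in iWAT (median 0.518). It entered only through its eWAT libraries, all 8 of which reached 1 FPKM, so its levels are given as a description, with no test. Slc25a45 had 10.8 to 16.1 FPKM in eWAT and 6.41 to 9.59 FPKM in iWAT (log2 0.80 ± 0.10, adjusted p = 1e-04). Slc25a30 had 11.8 to 16.4 FPKM in eWAT and 7.14 to 11.4 FPKM in iWAT (log2 0.57 ± 0.10, adjusted p = 0.0017). The substrates of these carriers are not all settled. The 5 macrophage markers summed to 733 to 1319 FPKM in eWAT and 195 to 339 FPKM in iWAT, and their part in the depot differences was not tested.

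Lower in eWAT were Slc25a1 and Slc25a10, carriers of citrate and dicarboxylates. Slc25a11, listed with them under citrate, dicarboxylate and oxoacid exchange, went the other way. Its ratio of eWAT over iWAT means was 1.20, and it was called higher in eWAT with the block but not without it. Slc25a1 had 121 to 196 FPKM in eWAT (median 162) and 182 to 470 FPKM in iWAT (median 251), a change of log2 -0.76 ± 0.13 (adjusted p = 0.000964). Slc25a10 had 60.8 to 115 FPKM in eWAT and 86.3 to 174 FPKM in iWAT (log2 -0.60 ± 0.10, adjusted p = 0.00071). Slc25a35 changed by -0.88 ± 0.22 (adjusted p = 0.0102), with overlapping ranges. Slc25a53 had 0.156 to 0.549 FPKM in eWAT and 0.305 to 1.73 FPKM in iWAT, again overlapping. It entered only through 3 iWAT libraries, so no depot test is given for it. The 7 fat cell markers summed to 4848 to 7939 FPKM in eWAT and 7742 to 13457 FPKM in iWAT, and their part was not tested.

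Slc25a23, Slc25a24 and Slc25a25 exchange ATP-Mg for phosphate and set the adenine nucleotide content of mitochondria. Slc25a23 had 11.0 to 19.9 FPKM in eWAT and 16.9 to 34.6 FPKM in iWAT (log2 -0.72 ± 0.20, adjusted p = 0.0163), which did not pass without the eWAT K107R vehicle libraries (0.0577). Slc25a24 had 6.35 to 25.6 FPKM in eWAT and 3.32 to 15.5 FPKM in iWAT, and its change of 1.07 ± 0.41 did not pass (adjusted p = 0.0748), but passed with the block (0.00033) and on rescaling (0.0187). Slc25a23 made 23.4 to 38.0% of the summed FPKM of the 3 in eWAT and 36.3 to 47.3% in iWAT, and Slc25a24 22.0 to 41.0% in eWAT and 7.14 to 21.9% in iWAT. The shares of Slc25a24 did not overlap between depots, though only by a margin of under 0.1 percentage points.

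**Figure D4:**
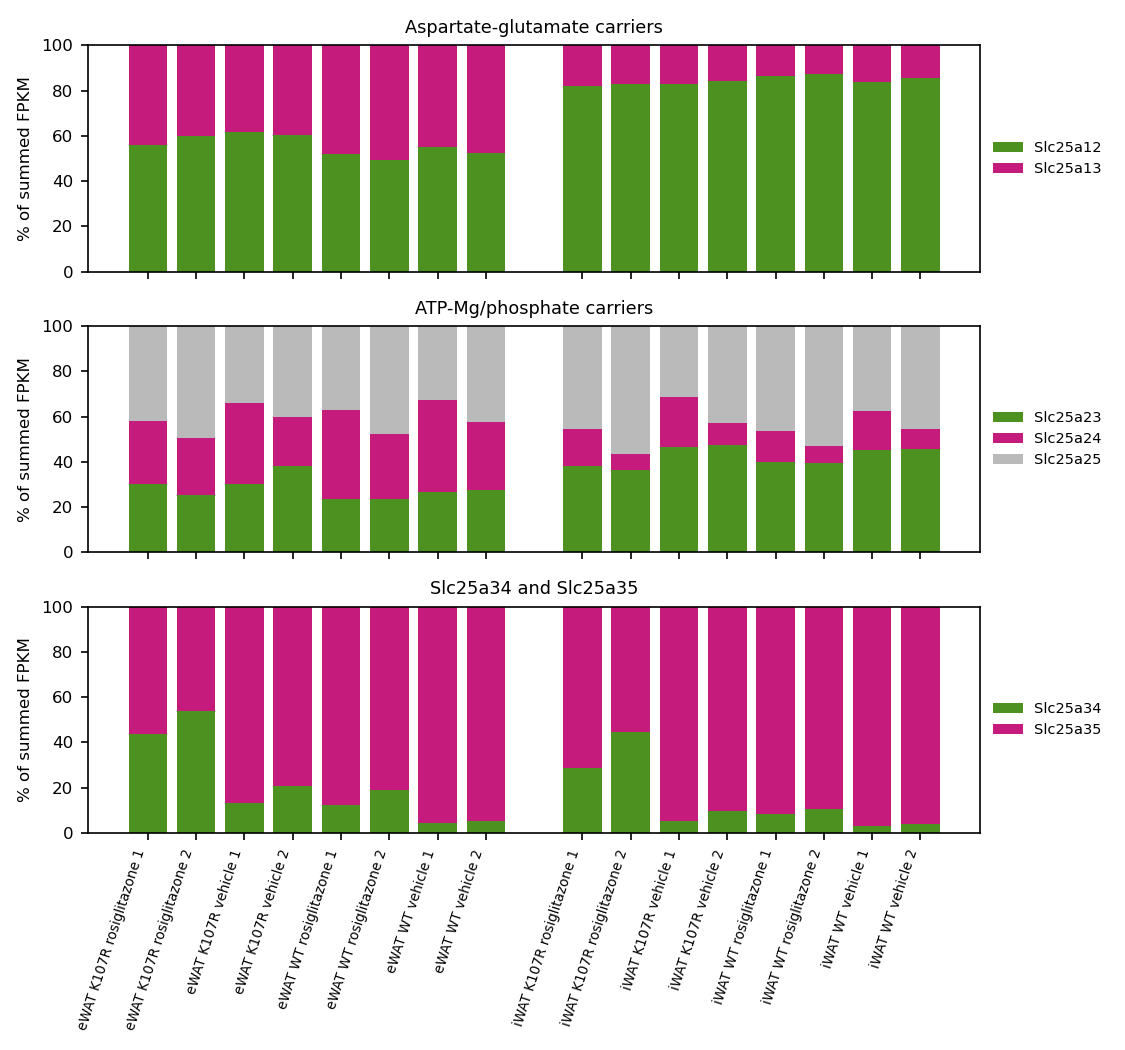
Share (%) of the summed FPKM of each paralogue set in each library, eWAT libraries left and iWAT libraries right. Slc25a13 made 38.0 to 50.5% of its set in eWAT and 12.6 to 17.9% in iWAT, and Slc25a34 made 43.9 to 54.0% of its set in K107R rosiglitazone eWAT.

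Other paralogue sets changed less between depots. Slc25a5 made 41.3 to 62.6% of Slc25a4 and Slc25a5 in eWAT and 40.3 to 65.6% in iWAT. Slc25a28 made 74.2 to 93.4% of the mitoferrins, the iron importers Slc25a28 and Slc25a37, in eWAT and 79.9 to 94.0% in iWAT. Slc25a36 made 56.1 to 82.9% of the pyrimidine nucleotide carriers Slc25a33 and Slc25a36 in eWAT and 52.5 to 79.1% in iWAT. Slc25a39 made at least 95.6% of Slc25a39 and Slc25a40 in every library. Slc25a15, the ornithine carrier, and Slc25a29 overlapped as well, Slc25a29 making 16.4 to 73.7% of their sum in eWAT and 21.8 to 59.1% in iWAT.

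Of 30 other genes of mitochondrial transport, 29 were in the table. Rosiglitazone called 0 of them in WT eWAT, WT iWAT and K107R iWAT, and Ucp1, the uncoupling protein of brown fat, in K107R eWAT (log2 2.97, adjusted p = 0.00219). Of all genes, 0.446%, 1.68%, 4.21% and 4.89% were called in these comparisons, in that order. With the block, 6 were higher and 1 lower in K107R eWAT (10.9% of all genes were called), 5 higher in WT iWAT (6.98%) and 11 higher in K107R iWAT (12.4%). Their median change with rosiglitazone was log2 0.54 in K107R eWAT and 0.15 in WT eWAT, and 0.43 in K107R iWAT and 0.32 in WT iWAT. Over all genes the medians were 0.17, 0.03, 0.03 and 0.03, in the same order. For genotype, Ucp1 was higher in K107R than in WT in eWAT with rosiglitazone (log2 2.37, adjusted p = 0.0421) and Mtch1, an outer membrane protein, in eWAT with vehicle (0.54, adjusted p = 0.0337). Of all genes, 0.907% and 3.35% were called in these 2 comparisons. The Mtch1 call and the K107R eWAT response of Ucp1 use the libraries with epididymis and epithelial transcripts, whose part was not tested; the genotype call of Ucp1 does not use them. Between depots 4 were higher in eWAT, Ucp2, Sfxn3, Vdac2 and Cpt1a, and 5 lower, Ucp1, Cpt2, Ucp3, Mpc1 and Letm1. Of all genes, 32.4% were called between depots, so the count is near the share over all genes.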

How the data were processed

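The authors deposited FPKM values per gene for 16 libraries (RNeasy extraction, stranded mRNA libraries, 75-nt single ends, per the labels' protocols). CASAVA 1.8.2, TopHat2 2.0.12, Cufflinks 2.2.1 and mm10 are named, per the submitters' processing notes; the annotation, strand setting and scaling between libraries are not given in the sources used here. Without counts, depth is unknown and no intervals were computed. Of the 40 members, 20 overlap another gene in GENCODE M21, 7 on the same strand, so reads could be shared there.

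The 13669 genes that reached 1 FPKM in 2 libraries or more were put on the log2(FPKM + 1) scale. All 16 libraries entered one model with a mean for each of the 8 groups, fitted by limma 3.58.1 (R 4.3.3, trend option). It gave 14 contrasts, each with two-sided p-values adjusted by Benjamini-Hochberg over all genes, and an adjusted p under 0.05 is called. Every alternative but no filter tested the same genes. Libraries of the same number deviated together from their groups' means in 28 of 28 pairs of groups (correlation 0.121 to 0.791, median 0.573), so the numbers were used as a replicate block in a second fit; what a number stands for is not in the labels. The scripts were tested on simulated data with independent noise in each library, so that test does not cover libraries that deviate together.

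Alternatives were a pseudocount of 0.1, no filter, median-ratio rescaling, the block, each depot alone, leaving out each library, and leaving out the eWAT K107R vehicle libraries. Rescaling with the block was added after seeing the data. Members named are those past each test (or the 2 with the smallest p), the highest and lowest by mean, and fixed paralogue sets; 1 member that this rule takes is counted but not reported here, in text or plots. Members and lists were chosen with earlier results of these data known; Slc25a20 and Slc25a39 were given in full after their values were seen.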

Additional observations from a re-analysis of the deposited data

Results flagged for a closer look

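The response of Slc25a34 to rosiglitazone was larger in K107R than in WT by log2 0.83 in eWAT and by 1.02 in iWAT, by limma's test of the difference itself over all genes (adjusted p = 0.0257 and 0.0197). The eWAT difference uses both K107R vehicle libraries that hold 3372 to 3572 FPKM of epididymis transcripts and has no value without them, and their part was not tested; the iWAT difference does not use them. All 4 K107R rosiglitazone libraries lay at 6.74 FPKM or more, and the 4 WT rosiglitazone libraries at 1.97 FPKM or less. The differences were lost with a pseudocount of 0.1, on rescaling and within the depot alone, and when single libraries were left out (adjusted p = 0.0641 to 0.154 in eWAT and 0.0725 to 0.0925 in iWAT where lost).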

How the results depend on the processing

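Of the counts of members called, 112 under other settings lay within 1.5 times the count reported and 69 did not. No log2 change of a member named by the rule turned its sign, but rescaling turned the median of the members in K107R over WT with vehicle in eWAT from -0.07 to 0.08. With a pseudocount of 0.1, the count fell to 1 for rosiglitazone in WT iWAT and for K107R in vehicle eWAT, and to 0 for both tests of whether the response differs by genotype (0.775 to 3.44% of all genes were called in these). With rescaling it was 0 for rosiglitazone in WT eWAT and both such tests, 1 for K107R in vehicle eWAT, 4 for rosiglitazone in K107R iWAT and over both genotypes in eWAT (0.724 to 5.77% of genes), and 19 for the depots (39.7%). Each depot alone gave 0 for rosiglitazone in WT (eWAT and iWAT) and both tests of the response, 1 for rosiglitazone in K107R iWAT and K107R in vehicle eWAT, and 2 for rosiglitazone over both genotypes in iWAT (0.00732 to 3.12%). Without the eWAT K107R vehicle libraries, rosiglitazone over both genotypes in eWAT called 0 (0.337%). The replicate block gave 7 for rosiglitazone in K107R eWAT, WT iWAT and K107R iWAT, 4 for K107R in vehicle eWAT, 3 for K107R with rosiglitazone in iWAT, 8 and 12 for rosiglitazone over both genotypes in eWAT and iWAT, 2 for the eWAT test of the response (4.2 to 16.2%) and 21 for the depots (55.8%); it changed no other count. Rescaling with the block gave 9, 7 and 10 for rosiglitazone in K107R eWAT, WT iWAT and K107R iWAT (15.9%, 10.8% and 17.7% of genes), 10 for K107R in vehicle eWAT (16.5%), 3 and 5 for K107R with rosiglitazone in eWAT and iWAT (5.35% and 13.0%), 10 and 14 over both genotypes (15.1% and 23.0%), 26 for the depots (64.1%) and 2 for the depot difference of the response (5.69%). Leaving out 1 library gave 0 in every case for rosiglitazone in WT eWAT. It gave 2 to 4 in K107R eWAT, 0 to 1 in WT iWAT, 1 to 2 in K107R iWAT, 2 to 4 and 2 to 3 over both genotypes in eWAT and iWAT, 1 to 2 for K107R in vehicle eWAT, 0 to 1 for each test of the response, and 9 to 11 for the depots. Why the counts moved was not tested. Each group has 2 libraries and depth is unknown, so members that did not pass are not shown to be unchanged.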

Other observations

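Members differed unequally between the replicate numbers. Number 1 minus number 2, Slc25a4 differed by log2 -0.59 to -0.31, lower in the number 1 library of all 8 groups, and Slc25a24 by 0.26 to 1.77, higher in all 8. In 7 of the 8 groups most members were higher in the number 1 library (29 to 34 of 40), and in K107R rosiglitazone eWAT 18 of 40 were. All genes were shifted about as much: in those 7 groups 72.5 to 85.0% of members and 69.5 to 82.4% of all genes were higher in the number 1 library, with median gaps of log2 0.24 to 0.50 over members and 0.18 to 0.53 over all genes. What the numbers stand for is not in the labels.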
